A study of Sus scrofa with 599 samples.

Results

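Expression and chromatin compartment are described here for 10 genes that carry fatty acids from circulating triglyceride into the fat cell, across 12 groups of porcine adipose tissues (ATs). The genes were taken by name, as LPL, GPIHBP1, ANGPTL4, LMF1, VLDLR, CD36, SLC27A1, FABP4, FABP5 and ACSL1, and all 10 of 10 were found among the 21280 protein-coding genes (PCGs) of the expression table. Symbols came from the reference name table for 9 of them. That table gives no symbol for ENSSSCG00000015405, which was taken as CD36 because the study's own supplementary table pairs the 2 names. The animals were adult female Bama pigs, 2 years old at the start. The NC pigs ate a normal diet. The WG pigs gained weight on a high-fat diet for 22 weeks. The WL pigs had first been through that same gain and were then held for 12 weeks at 10% of the normal intake, so that every WL pig carries the history of the high-fat diet. From each group, 3 visceral ATs and 1 subcutaneous AT were profiled as whole tissue. GOM, the fat of the greater omentum, MAD, which lines the mesentery, and RAD, which lies behind the peritoneum, are the visceral ATs, and ULB, the upper layer of the backfat, is the subcutaneous AT. RNA-seq covered 236 libraries, with 9, 12, 12 and 5 in NC, 45, 36, 39 and 38 in WG and 10 each in WL, in the order GOM, MAD, RAD and ULB. Hi-C covered 240 samples.

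Triglyceride travels in chylomicrons and very low density lipoprotein, and fat cells can take up its fatty acids only after hydrolysis in the capillary. Lipoprotein lipase, the product of LPL, does this work. It is folded in the endoplasmic reticulum of the fat cell with the help of LMF1, is carried across the endothelium and held on its luminal face by GPIHBP1, and is inactivated by ANGPTL4, a secreted protein known to rise on fasting. VLDLR is a receptor that binds triglyceride-rich lipoproteins. The freed fatty acids pass the membrane with CD36 and the transport protein FATP1, the product of SLC27A1, are bound in the cytosol by FABP4 and FABP5, and are activated to acyl-CoA by ACSL1. In adipose tissue the lipase is known as a feeding-dependent enzyme whose activity is set largely by these partner proteins.

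The 250 bases before the start of GPIHBP1 and ANGPTL4 are shown first, because these 2 genes had the largest ratios of highest to lowest group median among the 10 (5.17 and 8.78). The sequences are from the Sscrofa11.1 assembly with the RefSeq annotation, read 5′ to 3′ on the strand of the gene. GPIHBP1 lies on chromosome 4 on the minus strand (chr4:1256922-1257171) and ANGPTL4 on chromosome 2 on the minus strand (chr2:70912893-70913142). Capitals mark the GC box word GGGCGG with its form on the other strand CCGCCC.
GPIHBP1: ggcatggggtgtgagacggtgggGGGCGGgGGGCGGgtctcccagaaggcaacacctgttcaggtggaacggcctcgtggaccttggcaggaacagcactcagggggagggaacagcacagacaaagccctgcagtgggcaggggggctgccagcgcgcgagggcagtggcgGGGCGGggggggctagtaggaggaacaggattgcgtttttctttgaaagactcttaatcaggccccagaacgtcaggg
ANGPTL4: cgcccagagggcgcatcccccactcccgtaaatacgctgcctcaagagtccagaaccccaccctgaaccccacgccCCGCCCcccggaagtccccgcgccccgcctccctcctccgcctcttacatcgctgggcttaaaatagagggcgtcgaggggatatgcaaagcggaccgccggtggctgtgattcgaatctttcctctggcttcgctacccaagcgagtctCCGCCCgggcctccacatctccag

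Over the 300 bases from 250 before to 50 after the start, GPIHBP1 holds 13 CG dinucleotides and 62.7% G and C, and ANGPTL4 26 and 65.7%. The median over all 18705 PCGs on the autosomes was 16 CG dinucleotides and 58.7%. LMF1 held 40 CG dinucleotides, the most of the 10, and ACSL1 held 0. The word CCAAT was in the windows of 5 of the 10 genes, with FABP5, VLDLR and ACSL1 among them, and in 35.2% of all windows. GGGCGG was in 5 of 10 (FABP5, GPIHBP1, ANGPTL4, VLDLR and LMF1) and in 50.8% of all windows. TATAAA was in 2 of 10, FABP5 being 1 of them, and in 6.96% of all. The direct repeat of AGGTCA with 1 base between, the word bound by receptors of the PPAR family, was in 0 of the 10 and in 0.0321% of all, and AGGTCA alone, which the repeat contains, was in that of SLC27A1 and in 14.1% of all. TATAAA was searched on the strand of the gene and the others on both strands. These are counts of letters in 1 window and not binding sites.

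Levels are given as TPM, a unit corrected for gene length and depth. The libraries held a median of 16791659 estimated counts on PCGs (3337098 to 22939420). In 40 libraries less than 88% of the summed TPM lay on PCGs, against 88.1% or more in the other 196. These 40 are uneven across the groups: 7 of 9 in NC GOM, 6 of 12 in NC RAD, 6 of 10 in WL GOM and WL MAD, and 0 of 39 in WG RAD. In 10 libraries the profile or the marker genes of another tissue stood apart from the group. NC MAD replicate 1 had a summed TPM of smooth muscle markers of 14000, against a median of 453.6 in the rest of its group, and 5 WG libraries were high in skeletal muscle markers. WG MAD replicate 31 and WL MAD replicates 6 and 7 were high in lymphocyte markers. WG GOM replicate 35 correlated with the profile of its group at 0.596 (median over libraries 0.965) and was the lowest of the 45 WG GOM libraries in LPL, CD36, FABP4, FABP5 and VLDLR. Adipocyte markers were expressed in every group, with medians of the summed TPM of 8 markers from 3745 in NC GOM to 9715 in NC MAD. Nothing in the labels ties equal sample numbers in different ATs to one pig. In whole tissue, fewer cells of a type and less RNA per cell cannot be told apart.

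Expression level differed widely among the 10 genes, with ranges of group medians that overlapped between neighbouring genes. FABP4 was the most abundant, with group medians between 3847 TPM (NC GOM) and 13995 TPM (WL ULB). LPL (590 to 2257 TPM), CD36 (669 to 2747 TPM) and FABP5 (673.5 to 1250 TPM) followed. GPIHBP1 (115 to 596 TPM) and ACSL1 (102.4 to 281 TPM) also stayed above 100 TPM in the median of all 12 groups, so that 6 of the 10 genes did. ANGPTL4 ranged from 18 to 158 TPM and VLDLR from 51.7 to 114 TPM. The folding factor LMF1 (6.79 to 10.4 TPM) and the transporter SLC27A1 (3.60 to 6.89 TPM) were low throughout. The ratio of the highest to the lowest group median was 8.78 for ANGPTL4, 5.17 for GPIHBP1, 4.11 for CD36, 3.83 for LPL and 3.64 for FABP4. It was smallest for LMF1, at 1.53.

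**Figure D1:**
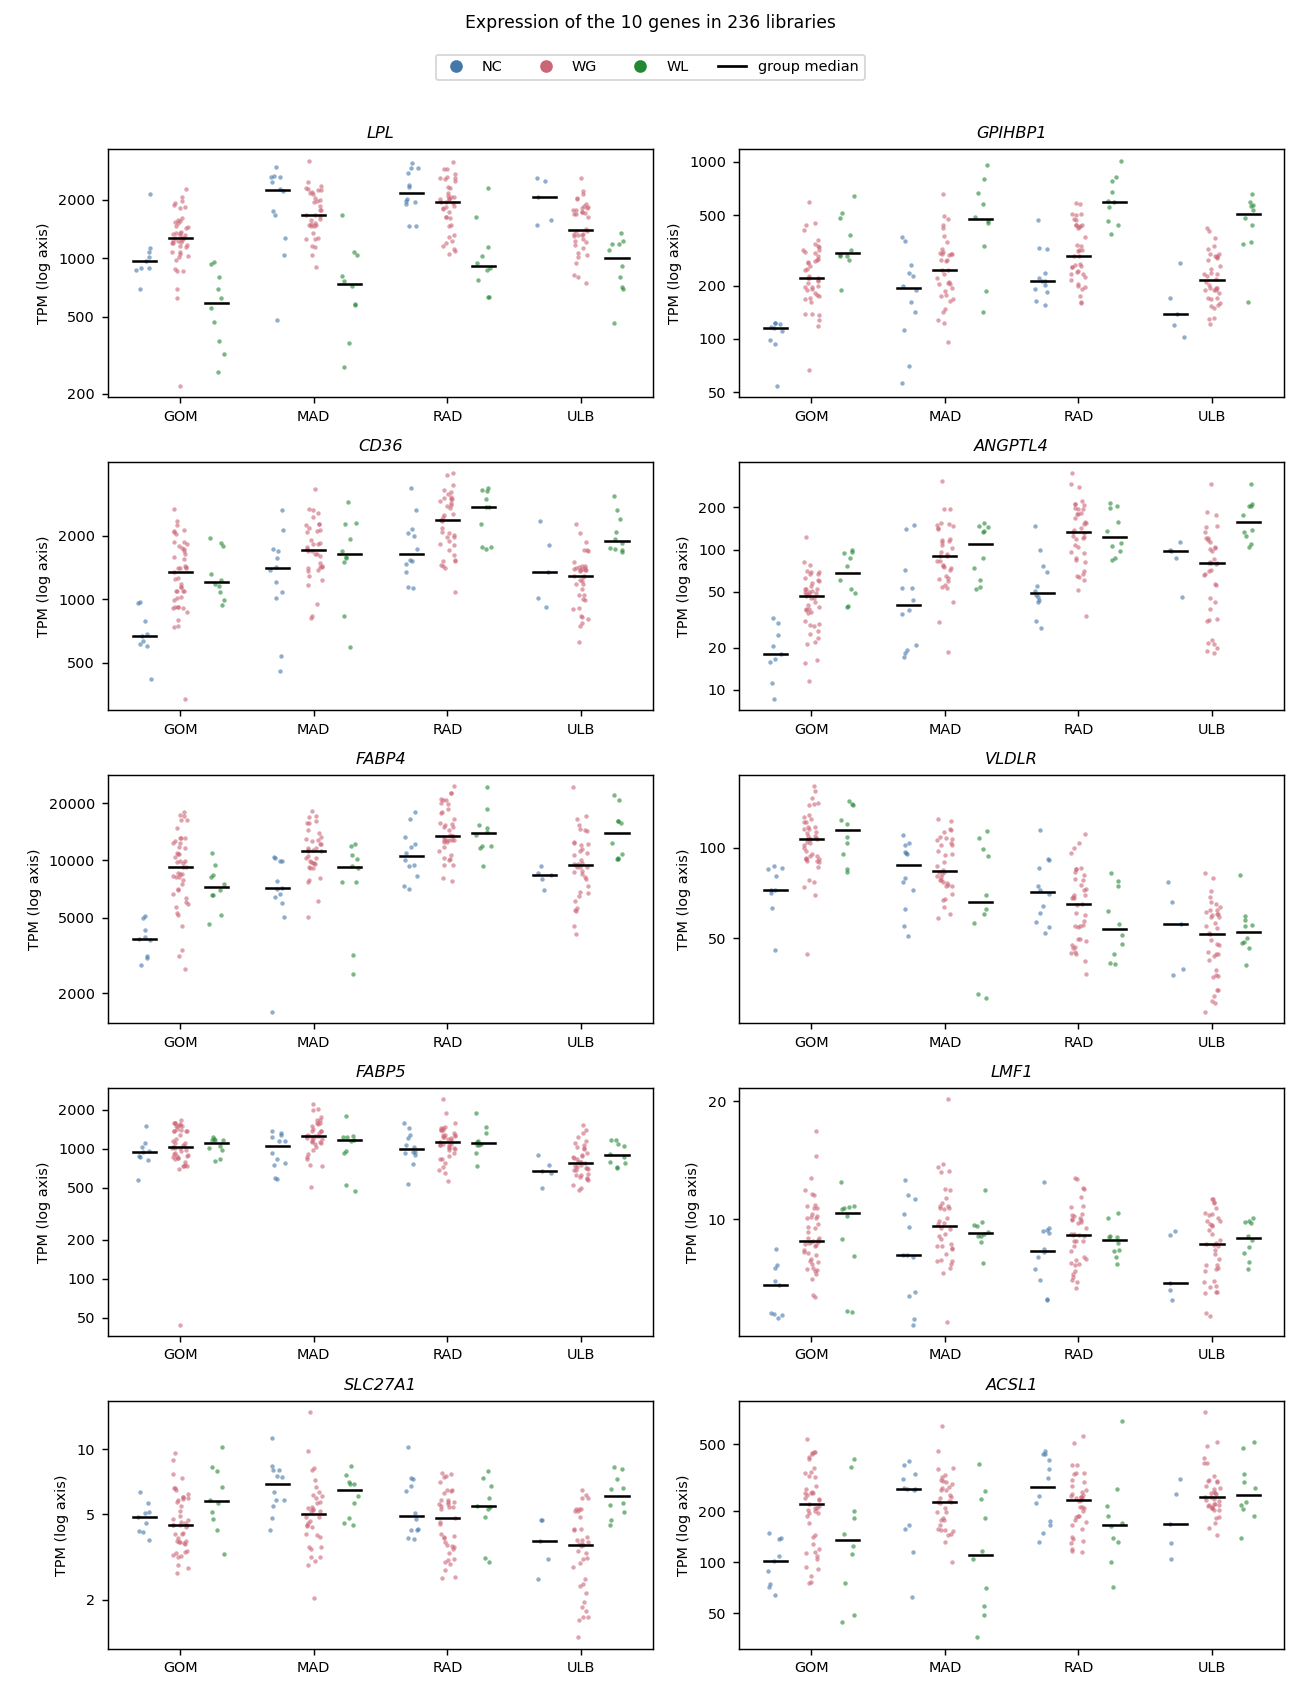
Expression of the 10 genes in TPM (log axis) in each of 236 libraries, grouped by AT on the horizontal axis and colored by NC, WG or WL, with black lines at group medians. LPL is lowest in WL in each AT (medians 590 to 1005 TPM), while GPIHBP1 is highest in WL (307 to 596 TPM).

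Nutritional groups were compared within each AT with the quasi-likelihood test of edgeR, run on all PCGs that exceeded 0.5 TPM in 80% or more of the samples in either group. Genes passed when the Benjamini-Hochberg adjusted p was under 0.05 and the fold over 1.5. Fold changes come from the counts with TMM scaling, while TPM values are on the deposited scale. All 10 genes were tested in all 4 ATs, giving 40 tests per step. From NC to WG, 7 of 40 passed (6 higher, 1 lower), where 14.3% of all tests on PCGs passed (6.37% higher, 7.89% lower). From WG to WL, 10 of 40 passed (5 higher, 5 lower), against 9.32% (4.08% higher, 5.24% lower), and from NC to WL 14 of 40 (8 higher, 6 lower), against 27.8% (11.6% higher, 16.2% lower). By AT, in the order GOM, MAD, RAD and ULB, the numbers of the 10 genes that passed were 5, 1, 1 and 0 with weight gain, beside 26.7%, 10.7%, 16.7% and 2.38% of all PCGs. They were 1, 3, 2 and 4 with weight loss, beside 5.26%, 17.4%, 6.37% and 8.12%, and 5, 3, 4 and 2 from NC to WL, beside 36.1%, 33.1%, 26.7% and 14.8%. The first and the last step share the NC libraries and the middle step shares libraries with both, so the steps are not independent of each other. The median log2 fold change over the 10 genes lay between -0.22 and 0.49 in the 12 comparisons, and that of all PCGs tested between -0.04 and 0.01. FABP5 and LMF1 passed in no comparison of diets.

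**Figure D2:**
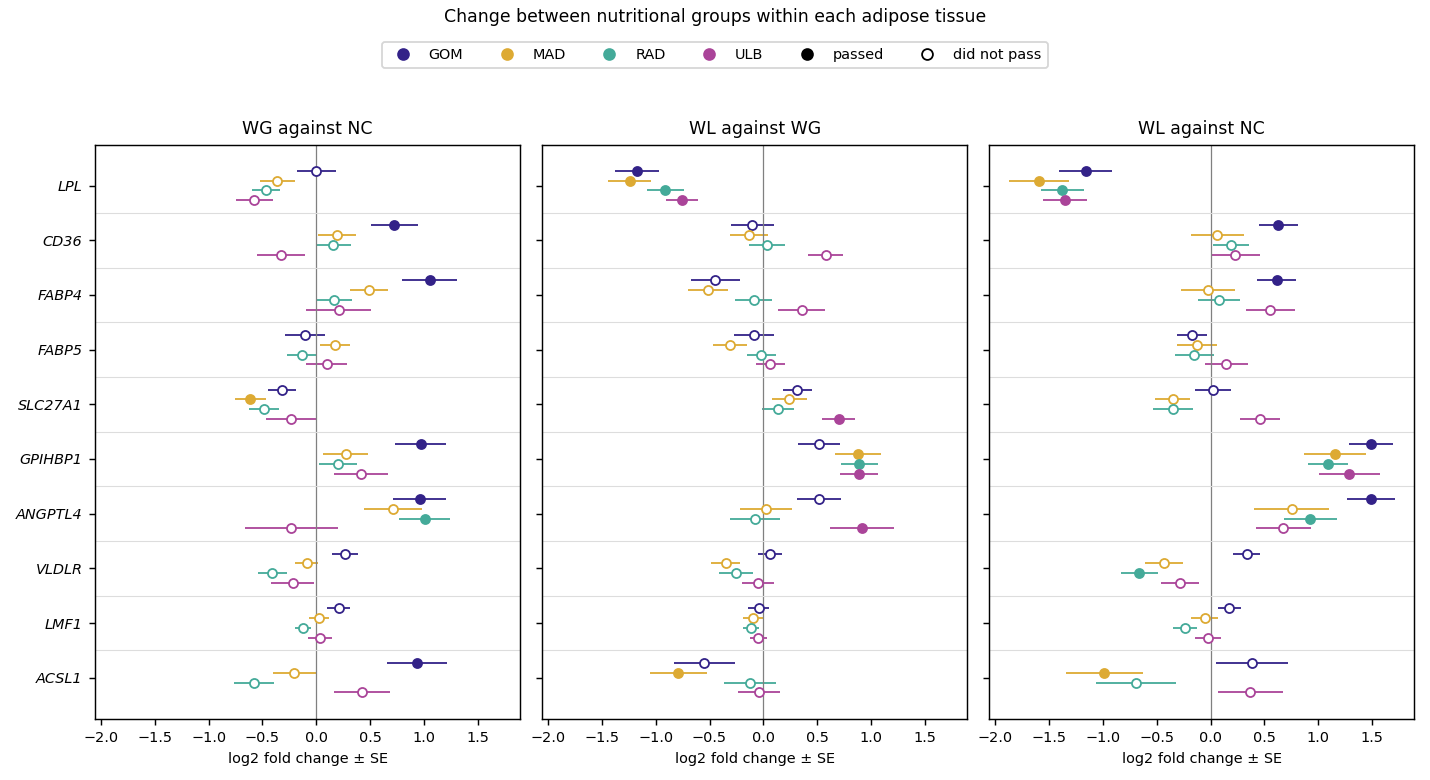
Log2 fold change with its standard error (horizontal axis) of the 10 genes for WG against NC, WL against WG and WL against NC, with 1 color per AT and filled symbols where the test passed. LPL passes downward in all 4 ATs in both comparisons with WL, and GPIHBP1 passes upward in 3 of 4 ATs for WL against WG and in 4 of 4 for WL against NC.

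LPL, the lipase itself, did not pass in any AT with weight gain and was lower in every AT after weight loss. In GOM the NC libraries held 692, 966 and 2149 TPM (lowest, median, highest), the WG libraries 220, 1273 and 2281 TPM, and the WL libraries 258, 590 and 962 TPM. In MAD the values were 481, 2257 and 2967 TPM in NC, 905, 1674 and 3192 TPM in WG and 274, 740 and 1676 TPM in WL. The WL median was thus below the NC and WG medians in both ATs, with overlap between the ranges. In RAD they were 1464, 2172 and 3086 TPM in NC, 1048, 1949 and 3151 TPM in WG and 630, 917 and 2312 TPM in WL. In ULB the 5 NC libraries held 2518, 1571, 2069, 1483 and 2597 TPM, the WG libraries 748, 1406 and 2590 TPM and the WL libraries 465.97, 1005 and 1350 TPM. Every WL library of ULB was below every NC library.

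The log2 fold change of LPL from WG to WL was -1.17 ± 0.20 for GOM (SE, edgeR adjusted p = 8.5e-05), -1.24 ± 0.20 for MAD (adjusted p = 1.1e-05), -0.91 ± 0.17 for RAD (adjusted p = 0.00025) and -0.75 ± 0.15 for ULB (adjusted p = 0.00023). Over all PCGs, 2.71%, 9.17%, 4.13% and 4.9% were lower in WL in these ATs. Whether the drop differed among the ATs was tested as an interaction of AT and step, which LPL did not pass (adjusted p = 0.657). The fit took the ATs as unpaired, so not passing it does not show equal drops of LPL. From NC to WL the log2 fold changes were -1.16 ± 0.25, -1.59 ± 0.28, -1.38 ± 0.20 and -1.35 ± 0.20, and all 4 passed (adjusted p between 2.1e-05 and 0.00047), where 20.7%, 17.8%, 16.6% and 9.37% of PCGs were lower. Of 8 adipocyte markers, 1, 3, 0 and 1 fell from WG to WL in the same order of ATs and 0, 0, 0 and 4 rose. In the step from NC to WL 0, 6, 2 and 1 of them fell and 2, 1, 1 and 2 rose. The 6 that fell were in MAD (median log2 fold change -0.99 over the 8), where 6 of 8 macrophage markers and 6 of 7 T and B cell markers rose in the same step. The part of these markers in the falls of LPL was not tested. With weight gain the log2 fold changes of LPL were 0.00 ± 0.18, -0.36 ± 0.16, -0.47 ± 0.13 and -0.58 ± 0.17, and none passed. In RAD the adjusted p of 0.0043 came with a fold below the limit. Among the 4 falls from WG to WL, only that in MAD was lost in any alternative: with libraries of at least 88% of TPM on PCGs alone, which leaves 4 WL libraries of MAD, the log2 fold change was -0.96 (adjusted p = 0.066, range over all alternatives 1.2e-09 to 0.066).

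GPIHBP1, which holds the lipase on the capillary wall, moved the other way. In GOM it held 54.2, 115 and 122 TPM in NC, 66.9, 221 and 590 TPM in WG, and 189, 307 and 645 TPM in WL, so that all 10 WL libraries were above all 9 NC libraries. In MAD the values were 56.4, 194 and 378 TPM in NC, 96.4, 244 and 655 TPM in WG and 141, 475 and 956 TPM in WL. In RAD they were 155, 211 and 470 TPM, then 160, 295 and 582 TPM, then 392, 596 and 1017 TPM. The order of the medians was the same in these 3 ATs, with NC lowest and WL highest. In ULB the 5 NC libraries held 102.1, 120, 269, 171 and 138 TPM, the WG libraries 120, 214 and 421 TPM and the WL libraries 161, 507 and 659 TPM. All 4 WL medians of GPIHBP1 were above all 8 medians of NC and WG.

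The rise of GPIHBP1 from WG to WL passed in MAD (log2 fold change 0.87 ± 0.21, edgeR adjusted p = 0.0018), RAD (0.89 ± 0.17, adjusted p = 0.00047) and ULB (0.88 ± 0.18, adjusted p = 0.00025), where 8.26%, 2.24% and 3.22% of all PCGs were higher. In GOM, where 2.55% of PCGs were higher, it was 0.52 ± 0.20 (adjusted p = 0.09) and did not pass. The interaction of AT and step was not passed either (adjusted p = 1). From NC to WL GPIHBP1 rose in all 4 ATs, by 1.48 ± 0.20, 1.15 ± 0.29, 1.09 ± 0.19 and 1.29 ± 0.28 on the log2 scale (adjusted p between 3.9e-06 and 0.0052), beside 15.4%, 15.2%, 10.2% and 5.39% of PCGs. With weight gain it rose in GOM (0.97 ± 0.24, adjusted p = 0.0013) and did not pass in the others (0.20 to 0.41). The rise in MAD from WG to WL was lost when only libraries of at least 88% on PCGs were kept (1.03, adjusted p = 0.066, range over all alternatives 0.00037 to 0.066). GPIHBP1 is a gene of the capillary endothelium. Of 7 tested markers of endothelial cells, 0, 1, 0 and 0 rose from WG to WL in GOM, MAD, RAD and ULB. Over the step from NC to WL 2, 2, 2 and 1 of them rose and 1, 0, 1 and 0 fell, and all 3 red blood cell markers tested rose in GOM and in RAD. The medians of the summed TPM of the endothelial markers were 537 to 628 in NC, 707 to 885 in WG and 779 to 951 in WL. The part of these markers in the rise of GPIHBP1 was not tested.

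Set against each other within a library, the TPM of LPL exceeded that of GPIHBP1 by a median factor of 8.84, 10.9, 9.61 and 13.1 in the GOM, MAD, RAD and ULB of the NC pigs. The 4 WG groups had 5.38, 7.04, 6.62 and 7.05, and the 4 WL groups 1.66, 1.90, 1.46 and 2.05. In WL it ranged from 0.611 to 6.83, and libraries with more GPIHBP1 than LPL were present in each AT. The range in NC began at 4.30. This ratio is built from the 2 genes just described and is not a separate test.

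**Figure D3:**
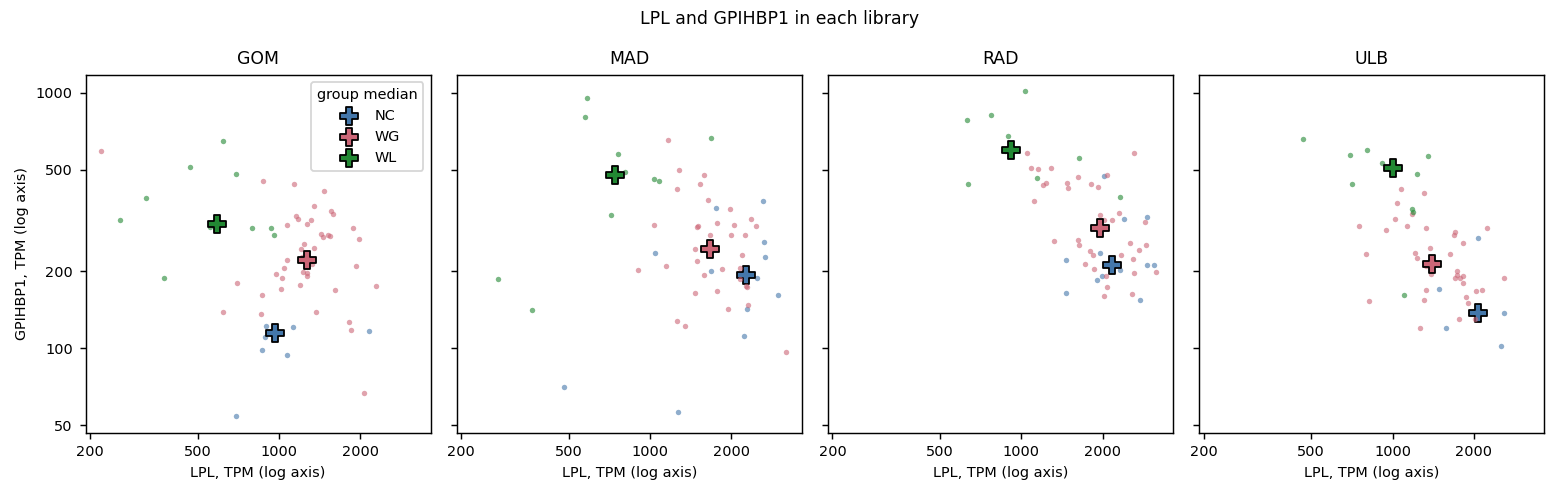
TPM of LPL (horizontal, log axis) against TPM of GPIHBP1 (vertical, log axis) in each library, with 1 panel per AT, points colored by NC, WG or WL, and crosses at the group medians. The WL crosses lie to the left of and above the NC and WG crosses in all 4 panels, for example at 1005 TPM of LPL and 507 TPM of GPIHBP1 in ULB.

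ANGPTL4, the inhibitor of the lipase, was higher in GOM and RAD after weight gain and in ULB after weight loss. In GOM it held 8.65, 18 and 32.3 TPM in NC, 11.5, 46.4 and 123 TPM in WG and 38.7, 68.1 and 99.2 TPM in WL, and no WL library of GOM overlapped with NC. In RAD the values were 27.6, 49.2 and 148 TPM in NC, 33.6, 135 and 349 TPM in WG and 84.4, 124 and 215 TPM in WL. The WL libraries of RAD fell within the range of WG. In MAD they were 17.2, 40.5 and 151 TPM, then 18.7, 90.2 and 307 TPM, then 52.3, 110 and 155 TPM. In ULB the 5 NC libraries held 45.6, 114, 86.7, 99.9 and 98.4 TPM, the WG libraries 18.4, 79.7 and 296 TPM and the WL libraries 105, 158 and 292 TPM. The WG libraries of ULB spanned the other 2 groups.

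With weight gain, ANGPTL4 rose by 0.96 ± 0.25 in GOM (edgeR adjusted p = 0.002) and by 1.00 ± 0.24 in RAD (adjusted p = 0.00085) on the log2 scale. The values in MAD (0.71 ± 0.27, adjusted p = 0.056) and ULB (-0.23 ± 0.43) did not pass, and the interaction gave an adjusted p of 0.0917. From WG to WL it rose in ULB (0.92 ± 0.30, adjusted p = 0.025), and from NC to WL in GOM (1.49 ± 0.22, adjusted p = 1.2e-05) and RAD (0.93 ± 0.25, adjusted p = 0.0046). Among libraries of at least 88% on PCGs, the rise in ULB (0.84, adjusted p = 0.1, range over all alternatives 0.021 to 0.1) and that from NC to WL in RAD (0.55, adjusted p = 0.2, range 0.0011 to 0.2) no longer passed. The rise in RAD with weight gain was lost there too and with a term for that share (0.83, adjusted p = 0.082, range 7.5e-05 to 0.092). The median ratio of LPL to ANGPTL4 within a library ranged over the 4 ATs from 23.9 to 49.2 for NC, from 14.1 to 29.4 for WG and from 5.38 to 8.08 for WL.

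LMF1 and VLDLR changed little with diet. LMF1 lay between 5.38 and 20.3 TPM in all 236 libraries and its log2 fold changes ranged from -0.24 to 0.21 over the 12 comparisons. VLDLR passed once, from NC to WL in RAD, where it fell by 0.66 on the log2 scale (SE 0.17, edgeR adjusted p = 0.0039). Its libraries there held 51.9, 71.1 and 115 TPM in NC and 41.01, 53.5 and 82.3 TPM in WL, with overlap. In the other comparisons its log2 fold change lay between -0.43 and 0.33.

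The uptake proteins CD36 and FABP4 rose with weight gain in GOM. CD36, which binds fatty acids at the cell surface, held 419, 669 and 976 TPM in NC GOM, 338, 1343 and 2692 TPM in WG GOM and 941, 1214 and 1960 TPM in WL GOM. FABP4, the main fatty acid binding protein of the fat cell, held 2805, 3847 and 5117 TPM in NC GOM, 2678, 9292 and 17908 TPM in WG GOM and 4625, 7250 and 10895 TPM in WL GOM. For both genes the NC libraries lay at the low end of the WG range. With weight gain the log2 fold change in GOM was 0.72 ± 0.22 for CD36 (edgeR adjusted p = 0.0088) and 1.05 ± 0.26 for FABP4 (adjusted p = 0.0013), and from NC to WL 0.63 ± 0.18 (adjusted p = 0.0058) and 0.61 ± 0.18 (adjusted p = 0.0064). The values from NC to WL fell below the fold limit with a term for the share of TPM on PCGs (0.54 and 0.58). In the other 3 ATs neither gene passed in any step. In ULB CD36 came near the limit from WG to WL, at 0.58 ± 0.16 (fold 1.49, adjusted p = 0.009), with 628, 1289 and 2284 TPM in WG and 1676, 1890 and 3096 TPM in WL. FABP4 in ULB had a range of 10155 to 22210 TPM in WL, above the 5 NC libraries (8369, 6984, 9319, 8014 and 8544 TPM), but its log2 fold change of 0.55 ± 0.23 did not pass (adjusted p = 0.092).

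FABP5, SLC27A1 and ACSL1 complete the path. FABP5, the second binding protein, held group medians from 673.5 TPM in NC ULB to 1250 TPM in WG MAD, with log2 fold changes between -0.31 and 0.17 over the 12 comparisons. With a term for the share of TPM on PCGs it fell with weight gain in GOM (-0.65, edgeR adjusted p = 0.0496), against -0.11 (adjusted p = 0.67) without the term, and the range over all alternatives was 0.0496 to 0.839. SLC27A1 fell with weight gain in MAD, from 4.19, 6.89 and 11.3 TPM in NC to 2.04, 4.99 and 14.9 TPM in WG (-0.61 ± 0.14, edgeR adjusted p = 0.0022). It rose with weight loss in ULB, from 1.33, 3.60 and 6.44 TPM in WG to 4.46, 6.08 and 8.27 TPM in WL (0.70 ± 0.16, adjusted p = 0.0011). The fall in MAD was -0.57 with a term for the share of TPM on PCGs, below the fold limit.

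ACSL1, which activates fatty acids to acyl-CoA, passed the test for a change with weight gain that differs among the ATs. It rose in GOM by 0.93 ± 0.28 on the log2 scale (edgeR adjusted p = 0.007), with 63.9, 102.4 and 149.8 TPM in NC and 76, 223 and 536 TPM in WG. In RAD the value was -0.58 ± 0.19 (adjusted p = 0.013, just under the fold limit), with 132, 281 and 455 TPM in NC and 115, 234 and 560 TPM in WG. In MAD it was -0.21 ± 0.20 and in ULB 0.42 ± 0.26. Tested over the 4 ATs, the interaction of AT and weight gain passed for ACSL1 (edgeR F = 6.93, adjusted p = 0.0074), where 8.8% of 15068 PCGs passed, and for none of the other 9 genes. The nearest were CD36 (adjusted p = 0.052) and VLDLR (0.0588). Without the libraries that stand apart, CD36 passed too (adjusted p = 0.034). From WG to WL ACSL1 fell in MAD (-0.79 ± 0.26, adjusted p = 0.02), with 101, 229 and 641 TPM in WG and 36, 110 and 379 TPM in WL. Without the libraries that stand apart, among them the 2 WL MAD libraries with lymphocyte markers, this value was -0.56 (adjusted p = 0.13, range over all alternatives 0.0078 to 0.38). From NC to WL in MAD it fell by 0.99 (SE 0.36, adjusted p = 0.028), and the interaction of AT and weight loss was not passed (adjusted p = 0.559). That interaction passed for 0 of the 10 genes by edgeR, the only tool run on it, where 6.41% of all PCGs passed, with 4 of the 10 at an unadjusted p under 0.05. The interaction tests took the samples of different ATs as independent. With the sample number as a block more interaction calls were made, as given in the last section. A test not passed thus does not show equal changes among the ATs.

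All 5 of the genes that rose in GOM with weight gain (CD36, FABP4, GPIHBP1, ANGPTL4 and ACSL1) are compared against the NC GOM libraries, of which 7 of 9 are low in TPM on PCGs. Over all PCGs, 12.2% were higher in this comparison. Only 3 of the 45 WG GOM libraries are of that kind, so that this share and the nutritional group run nearly together. With a term for it, 3 of the 5 passed and CD36 (0.45, adjusted p = 0.23, range over all alternatives 0.0026 to 0.47) and FABP4 (0.87, adjusted p = 0.06, range 9.9e-05 to 0.4) did not. Among libraries of at least 88% alone, 2 NC libraries remain and none of the 5 passed, with log2 fold changes of 0.65 to 1.62. TPM itself carries the same feature: the LPL median of NC GOM was 966 TPM as deposited and 1193 when rescaled over PCGs. Adipocyte markers moved along in GOM, where 3 of 8 rose and the summed TPM ran from 2174 to 4295 in NC and from 1394 to 9714 in WG. Red blood cell markers also rose there (3 of 3 tested, median log2 fold change 1.41), as did 2 of 7 endothelial and 2 of 7 fibroblast and progenitor markers, while 2 of 4 mesothelial markers fell. The part of these markers in the 5 rises was not tested.

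Depots were then compared within each nutritional group, with 6 pairs and 60 tests of the 10 genes per group. In NC 18 of 60 passed, against 13% of all tests. Of these, 17 had GOM as the lower AT. CD36, FABP4, ANGPTL4, LPL and ACSL1 were lower in GOM than in each of the other 3 ATs, and GPIHBP1 was lower than in MAD and RAD. The largest were ANGPTL4 between GOM and ULB (2.12 ± 0.27, edgeR adjusted p = 2.5e-05), ANGPTL4 between GOM and RAD (1.65 ± 0.27, adjusted p = 7.8e-05) and ACSL1 between GOM and RAD (1.56 ± 0.27, adjusted p = 0.00017). CD36, FABP4 and GPIHBP1 did not overlap between NC GOM and NC RAD. The share of all PCGs without overlap is not given, here or for other pairs of groups, so such statements only describe the libraries. Of all PCGs, 7.49%, 9.89% and 13.3% passed as higher in MAD, RAD and ULB than in GOM. The call that did not involve GOM was SLC27A1, lower in ULB than in MAD (-0.88 ± 0.22, adjusted p = 0.015), and it was lost without NC ULB replicate 2 (-0.77, adjusted p = 0.0516, range over all alternatives 0.0011 to 0.0516). That of ACSL1 between GOM and ULB (0.79 ± 0.24) was lost without NC ULB replicate 7 (0.58, adjusted p = 0.0855, range 0.00565 to 0.208). Among libraries of at least 88% on PCGs, with 2 in NC GOM, 4 of 60 passed. With the sample number as a block, which every pair of equal numbers bore out between GOM and ULB in NC (4 pairs), LPL (0.75, adjusted p = 0.0955) and ACSL1 (0.45, adjusted p = 0.208) no longer passed there.

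In WG 12 of 60 passed, against 10.8%. These tests took the ATs as unpaired, although equal numbers correlated at a median of 0.581 to 0.637 between GOM and the other ATs. ANGPTL4 had the widest span, being higher in RAD than in GOM by 1.71 ± 0.15 on the log2 scale (edgeR adjusted p = 8.5e-18), in MAD than in GOM by 1.16 ± 0.15 and in ULB than in GOM by 0.95 ± 0.18, and lower in ULB than in RAD by 0.75 ± 0.19. CD36 (0.84 ± 0.12), FABP4 (0.68 ± 0.13) and LPL (0.64 ± 0.10) were higher in RAD than in GOM. CD36 was lower in ULB than in RAD (-0.87 ± 0.11), and FABP4 passed there too with the sample number as a block (-0.64, adjusted p = 5.8e-06), where all 33 pairs of equal numbers deviated together, against -0.49 (adjusted p = 0.0022) without it. VLDLR ran the other way. It was lower in RAD (-0.60 ± 0.08) and ULB (-0.94 ± 0.09) than in GOM, and lower in ULB than in MAD (-0.73 ± 0.09). FABP5 was lower in ULB than in MAD (-0.587 ± 0.09), just past the fold limit, and without the libraries that stand apart (-0.579) it did not pass.

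In WL 14 of 60 passed, against 10.1%, and 12 of them involved GOM. Among libraries of at least 88% on PCGs, with 4 each in WL GOM and WL MAD, 4 of 60 passed. ANGPTL4, CD36, FABP4 and LPL were higher in RAD and in ULB than in GOM, with log2 differences from 0.62 to 1.31, and GPIHBP1 was higher in RAD than in GOM (0.81 ± 0.20, edgeR adjusted p = 0.0065). VLDLR was again lower outside GOM, by 0.94 ± 0.16 in RAD and by 1.08 ± 0.13 in ULB (adjusted p = 8.9e-07), with no overlap between the libraries of GOM (82.9, 114 and 142 TPM) and those of RAD or ULB (41.01 to 82.3 and 40.8 to 81.0 TPM). Mesothelial cells cover the omentum, and 4 of their 8 markers were in the name table. Their summed TPM had medians of 214 to 312 in GOM and 4.7 to 13.8 in the other ATs, and its part in the differences of GOM was not tested. FABP4 was higher in RAD (0.81 ± 0.24, adjusted p = 0.038) and ULB (0.76 ± 0.24, adjusted p = 0.03) than in MAD. Without the 2 WL MAD libraries high in lymphocyte markers, these were 0.60 (adjusted p = 0.064, range over all alternatives 0.0073 to 0.72) and 0.55 (adjusted p = 0.043, range 0.0085 to 0.3, below the fold limit), and VLDLR between GOM and MAD, at -0.62 ± 0.19 (adjusted p = 0.049), was -0.47 (adjusted p = 0.081, range 0.017 to 0.33). Between MAD and RAD in WL, where all 10 pairs of equal numbers deviated together, the block removed the call of FABP4 (adjusted p = 0.0592) and added ACSL1 (0.60, adjusted p = 0.0436).

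Among the many WG libraries it can be asked which of the genes vary together from sample to sample within 1 AT. Pearson's r of log2(TPM + 1) was computed for 45 pairs of genes in 4 ATs, giving 180 relations, each with a permutation test of 100000 resamples and Benjamini-Hochberg adjustment over all 180. Of these 47 passed, and 4 pairs passed in all 4 ATs. Relations among other genes were not computed, so no share over all PCGs stands beside this count. Variation common to the whole profile of a library was not taken out. CD36 and FABP4 varied together most closely, with r from 0.758 to 0.839 (Spearman's rho 0.754 to 0.83, adjusted permutation p at most 0.000225 for r and 0.0003 for rho). Without the 2 libraries farthest from the median of CD36, r was 0.729 to 0.814, and without the libraries that stand apart 0.706 to 0.839. SLC27A1 and LMF1, both low in TPM, were correlated at 0.416 to 0.682 (rho 0.406 to 0.547, adjusted permutation p at most 0.0357 and 0.0384). SLC27A1 was negatively correlated with CD36 (-0.571 to -0.425, rho -0.661 to -0.419) and with FABP4 (-0.717 to -0.521, rho -0.637 to -0.549). Without the 2 farthest libraries the 3 relations kept their sign, at 0.338 to 0.532, -0.714 to -0.398 and -0.671 to -0.53.

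LPL and GPIHBP1 were negatively correlated in the WG libraries of all 4 ATs (r from -0.563 to -0.272, rho from -0.533 to -0.00316). The relation passed in RAD (r = -0.563, adjusted permutation p = 0.0028) and ULB (r = -0.414, adjusted permutation p = 0.0386) and not in GOM and MAD. Leaving out the libraries that stand apart brought the weakest of the 4 to -0.0626 and left the strongest at -0.569. The relation of LPL to ANGPTL4 passed in no AT (-0.309 to -0.0482). A negative relation of LPL was not particular to GPIHBP1. LPL and FABP4 passed in 3 ATs (r from -0.552 to 0.327) and LPL and CD36 in 2 (-0.534 to 0.291), each with r positive in 1 AT. LPL and SLC27A1 were positively correlated in all 4 ATs (0.281 to 0.582) and passed in 3. FABP4 and FABP5, whose starts lie 186.2 kb apart on chromosome 4, were not correlated in any AT at the limit (-0.248 to 0.185).

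Across the 12 group means of log2(TPM + 1), as a description with no test, CD36 and FABP4 were again the closest pair (r = 0.942), and CD36 was close to ANGPTL4 (0.897). LPL and GPIHBP1 had r = -0.479. Among 15865 PCGs with a mean of at least 1 TPM in a group, the genes most like LPL over the 12 groups were VWA8 (r = 0.978), PCDH9 (0.967) and PRDX3 (0.966). Those most like GPIHBP1 were LPAR4 (0.984), DGKE (0.984) and ITM2A (0.979), those most like CD36 were ASPA (0.98), NES (0.952) and ANO3 (0.95), and with a symbol RGCC (0.967) and ANXA5 (0.966) were most like FABP4. For the others the closest gene with a symbol was DHRS4 for ANGPTL4 (0.948), RDH10 for VLDLR (0.921), C15orf62 for LMF1 (0.983), PRKRA for SLC27A1 (0.94), CMKLR2 for FABP5 (0.936) and CROCC2 for ACSL1 (0.951). The 12 points share animals and libraries across genes.

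Other genes of the same pathway were followed as a list of 42, of which 36 matched a row. From NC to WG, 15 tests were higher and 12 lower of 116 over the 4 ATs, from WG to WL 6 and 10 of 111, and from NC to WL 17 and 10 of 115. The shares are 23.3%, 14.4% and 23.5%, beside 14.3%, 9.32% and 27.8% over all PCGs. The clearest was ACSS2, the cytosolic acetyl-CoA synthetase, which fell from WG to WL in all 4 ATs (-1.25 ± 0.24, -1.43 ± 0.29, -0.92 ± 0.24 and -1.52 ± 0.22, edgeR adjusted p between 2.3e-06 and 0.0068). LIPG, the endothelial lipase, rose from WG to WL in MAD (0.91 ± 0.31) and RAD (1.53 ± 0.31) and fell in ULB (-1.10 ± 0.25). DBI, the acyl-CoA binding protein, fell in MAD (-0.93 ± 0.19) and ULB (-0.59 ± 0.15), and FABP9 rose in GOM (1.03) and RAD (0.87). With weight gain the inhibitor of the lipase APOC3 fell in GOM, MAD and RAD (-1.86 ± 0.70, -2.81 ± 0.67 and -3.30 ± 0.78). TPM levels of the listed pathway genes are not given here, and a gene just above 0.5 TPM could be tested. APOE rose in GOM (1.63 ± 0.35) and RAD (0.65 ± 0.17) and SLC27A3 in the same ATs (1.69 ± 0.42 and 1.12 ± 0.36), while FABP9 and the lipoprotein receptor LSR fell in GOM and ULB (-0.85 and -2.39, and -1.04 and -1.92). From NC to WL the transporter SLC27A4 rose in all 4 ATs (1.22, 0.88, 0.93 and 0.87), SLC27A3 in GOM, RAD and ULB (2.33, 1.42 and 1.31) and LIPG in MAD and RAD (1.84 and 1.78). In that step ACSS2 fell in all 4 (-0.62, -1.48, -1.15 and -1.24), DBI in MAD, RAD and ULB (-1.40, -1.31 and -0.87) and FABP3 in MAD and RAD (-2.09 and -1.63).

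The chromatin compartment of the genes was read from the A-B index, a score without unit that the authors computed for each bin of 20 kb from the Hi-C maps. Positive values mark compartment A, the open and active part of the genome, and negative values compartment B. The index was taken at the bin that holds the start of the gene. Averaged over the groups, the start bins of SLC27A1 (percentile 96.1 among gene start bins), ANGPTL4 (93.6), LMF1 (88.8) and GPIHBP1 (84.9) lay deep in A, and ACSL1 was at percentile 62.1. FABP4 (40.6), FABP5 (39.1), CD36 (32.3), VLDLR (31.1) and LPL (20.5) were lower. LPL thus had the lowest index of the 10, although it was among the 4 most expressed of them.

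**Figure D4:**
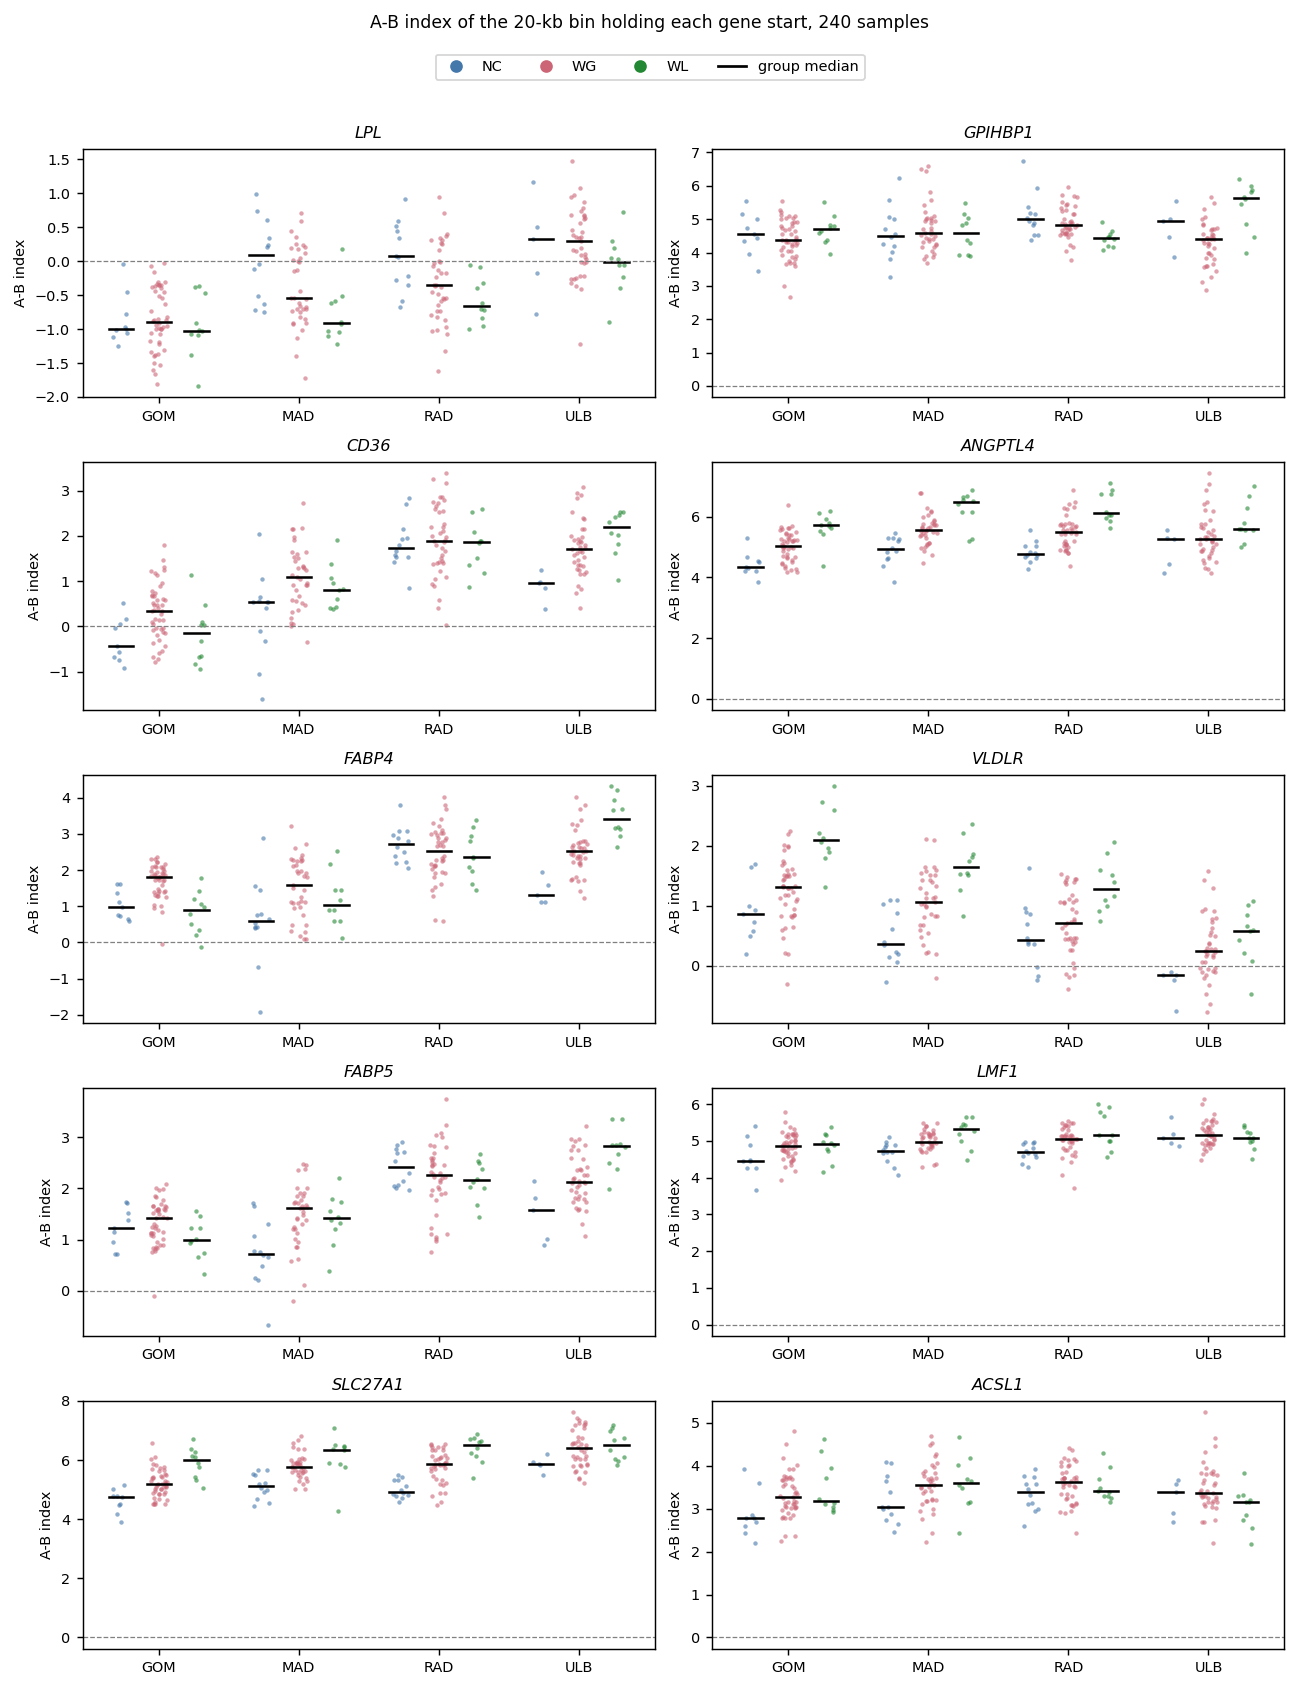
A-B index (vertical axis, no unit) of the 20-kb bin at the start of each gene in each of 240 Hi-C samples, grouped by AT and colored by NC, WG or WL, with black lines at group medians and a dashed line at 0, the limit between compartments A and B. All GOM points of LPL lie below 0, while those of ANGPTL4, SLC27A1, GPIHBP1, LMF1 and ACSL1 are all above it.

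The start bin of LPL sat at the border of the compartments. In GOM it was in B in all 9 NC, 46 WG and 10 WL samples, with medians of -1.002, -0.895 and -1.03. In MAD it was in A in 6 of 12 NC, 13 of 37 WG and 1 of 10 WL samples, and in RAD in 7 of 12, 11 of 40 and 0 of 10. In ULB the index of the 5 NC samples was 1.17, 0.33, 0.50, -0.17 and -0.78, so that 3 of 5 were in A, with 27 of 39 in WG and 5 of 10 in WL. The median moved in MAD from 0.0882 in NC to -0.542 in WG and -0.91 in WL and in RAD from 0.0698 to -0.354 and -0.655. On the index as deposited, only 1 of these differences passed the test.

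Differences of the index were tested with limma over 113298 autosomal bins, and a bin passed at an adjusted p below 0.05 and a difference above 0.75. From NC to WG 5 of 40 start bins passed (4.43% of all tests on bins), from WG to WL 5 of 40 (4.33%) and from NC to WL 14 of 40 (12.7%). From NC to WL the index rose at VLDLR in all 4 ATs, by 1.27 ± 0.23, 1.18 ± 0.19, 0.82 ± 0.20 and 0.79 ± 0.24, the last of which was lost without replicate 5, 9 or 12 of the NC samples. It rose at ANGPTL4 in GOM (1.20 ± 0.21), MAD (1.35 ± 0.22) and RAD (1.49 ± 0.18, limma adjusted p = 9.1e-07) and at SLC27A1 in the same 3 ATs (1.29 ± 0.22, 0.99 ± 0.24 and 1.34 ± 0.17). In ULB it rose at FABP4 (2.08 ± 0.27), FABP5 (1.28 ± 0.25) and CD36 (1.20 ± 0.25). At LPL in MAD it fell by 0.80 (SE 0.22, adjusted p = 0.0083), and without NC MAD replicate 1 the fall was 0.74 and below the limit. The whole index shifted in the same step: the median over all bins rose by 0.14, 0.10, 0.28 and 0.14 by AT, and the median of the gene bins went from 2.22 to 2.40 in the 4 ATs of NC to 2.66 to 2.84 in WL. Of all bins 11.6% were higher and 1.12% lower. With the samples brought to a common distribution by quantile normalization, SLC27A1 in MAD (0.67) and VLDLR in RAD (0.49) and ULB (0.45) no longer passed. At LPL the normalized mean went from 0.148 in NC to -0.89 in WL for MAD, and from 0.165 to -0.757 for RAD. As deposited these means went from 0.03 to -0.774 and from 0.072 to -0.568. In GOM the normalized mean went from -0.724 to -1.002 and in ULB from 0.431 to -0.143. Calls at LPL after this normalization are not given.

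In the shorter steps the calls were fewer. From WG to WL the index rose at GPIHBP1 in ULB (1.09 ± 0.22, limma adjusted p = 0.00015), FABP4 in ULB (0.97 ± 0.21), VLDLR in GOM (0.92 ± 0.18) and ANGPTL4 in RAD (0.83 ± 0.19), and fell at FABP4 in GOM (-0.88 ± 0.17). GPIHBP1 in ULB held 2.88, 4.41 and 5.68 in WG and 3.98, 5.64 and 6.19 in WL, with overlap. From NC to WG it rose at CD36 and FABP4 in MAD (0.81 ± 0.25 and 0.92 ± 0.30) and in ULB (0.85 ± 0.27 and 1.11 ± 0.28) and at SLC27A1 in RAD (0.76 ± 0.17). The MAD rises rested on NC MAD replicate 6, which had the lowest index of the 12, at -1.6003 for CD36 and -1.91 for FABP4, while replicate 7 had the highest, at 2.05 and 2.90. Without replicate 6 they were 0.64 (adjusted p = 0.054) and 0.69 (adjusted p = 0.078), and without replicate 1 that at FABP4 was 0.80 (adjusted p = 0.058). In ULB the NC samples had 0.97, 0.96, 0.84, 1.25 and 0.39 at CD36 and 1.11, 1.59, 1.32, 1.94 and 1.11 at FABP4, and the call at CD36 was lost when any 1 of the 5 was left out. That at FABP4 was lost without replicate 5 (adjusted p = 0.0548) or replicate 12 (adjusted p = 0.0504), with a range over all alternatives of 0.00775 to 0.368. After quantile normalization only FABP4 in ULB (0.88) still passed among the 5 rises from NC to WG, and SLC27A1 in RAD was 0.41. VLDLR in GOM from WG to WL was then 0.74, below the limit, and the other 4 calls of that step still passed.

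Between ATs the index of CD36, FABP4 and FABP5 separated GOM from RAD in each nutritional group. Of 60 tests per group, 19 passed in NC (13.2% of all bins), 13 in WG (10.3%) and 21 in WL (10.8%). From GOM to RAD the difference at CD36 was 2.12 ± 0.22, 1.56 ± 0.15 and 1.94 ± 0.25 in the NC, WG and WL pigs, at FABP4 1.67 ± 0.20, 0.76 ± 0.13 and 1.601 ± 0.26, and at FABP5 1.18 ± 0.17, 0.84 ± 0.12 and 1.14 ± 0.18 (limma adjusted p between 2.4e-15 and 7.2e-05). After quantile normalization the differences in WG at FABP4 (0.63) and FABP5 (0.72) were below the limit of 0.75, and the other 7 still passed. CD36 in GOM was in A in 3 of 9 NC, 31 of 46 WG and 5 of 10 WL samples, and in RAD in every sample. FABP4 and FABP5 lie in neighbouring regions of chromosome 4 and moved together, while the expression of FABP5 did not pass between GOM and RAD. VLDLR had the reverse order, with an index lower in ULB than in GOM by 1.19 ± 0.25 in NC, 0.95 ± 0.11 in WG and 1.67 ± 0.22 in WL. The LPL bin was higher in ULB than in GOM in the 3 groups (1.06 ± 0.28, 1.13 ± 0.11 and 0.92 ± 0.20).

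Over the 12 group means, described with no test, index and expression were related with r = 0.797 for ANGPTL4, 0.779 for CD36, 0.76 for FABP4, 0.701 for LPL and 0.631 for VLDLR. For the other 5 genes r lay between -0.115 and 0.446. GPIHBP1, whose expression was highest in WL in every AT, had r = 0.154. The 12 points share pigs, and the means of a group come from Hi-C and RNA of the same ATs.

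**Figure D5:**
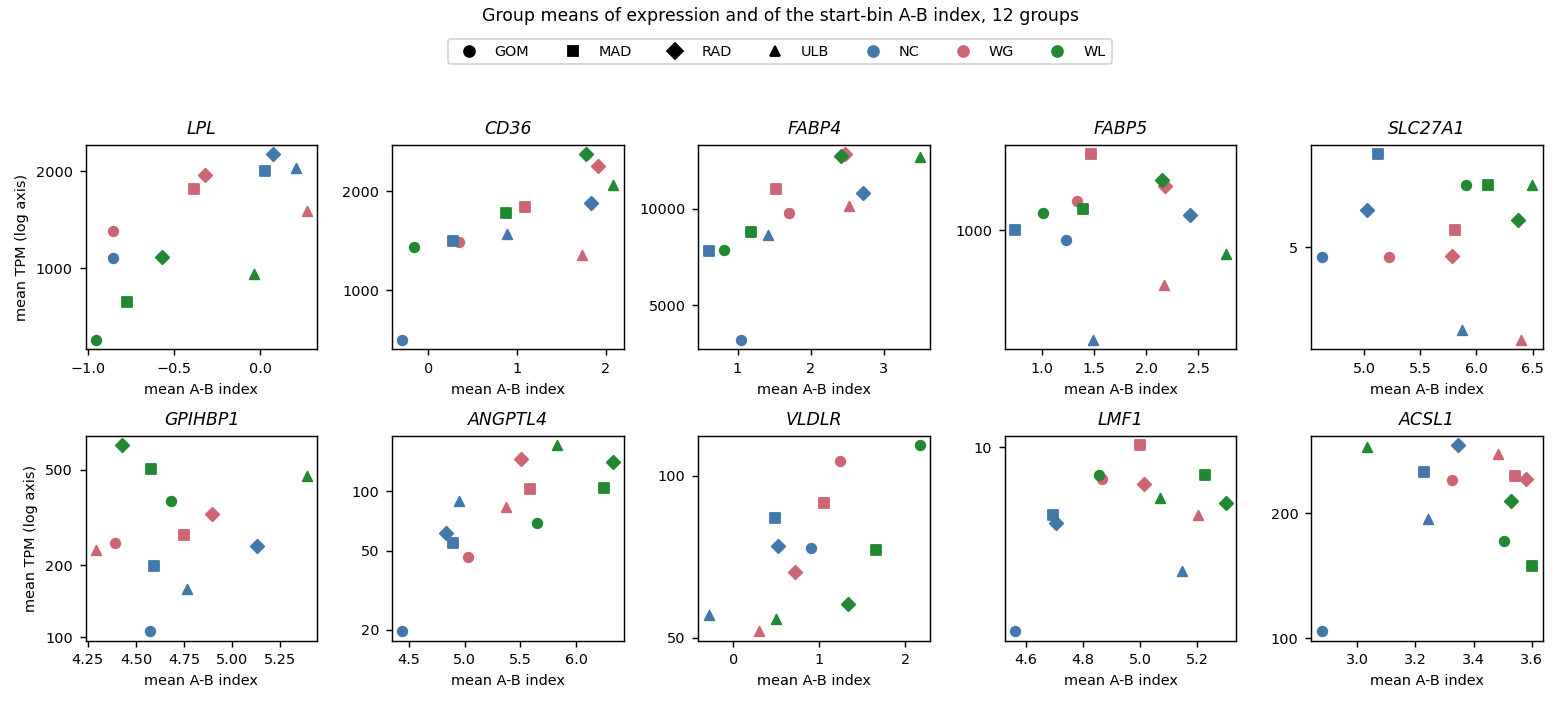
Mean A-B index of the start bin (horizontal axis, no unit) against mean TPM (vertical, log axis) for each gene over 12 groups, with shape by AT and color by NC, WG or WL. ANGPTL4 (r = 0.797) and CD36 (r = 0.779) rise from lower left to upper right, while GPIHBP1 (r = 0.154) shows the 4 WL groups at the top over a wide span of the index.

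H3K27ac, a histone mark of active enhancers, was available as 18 tables of regions, each made by the authors from pooled reads of a group or subgroup, so that no replicate error can be given. Within 10 kb of the gene body a region was found in 174 of 180 combinations of gene and table, and 26 of these were marked as super-enhancer, a class of unusually strong clustered regions. ANGPTL4 accounted for 12 of the 26, FABP4 for 5 and CD36 for 4. SLC27A1 had 2, LPL, LMF1 and ACSL1 had 1 each, and GPIHBP1, VLDLR and FABP5 had 0. In these tables the share of all autosomal PCGs with a region within 10 kb ranged from 65.2% to 85.6%. The share with a super-enhancer within 10 kb ranged from 5.72% to 27.8%, and the 26 marks in 180 combinations lie within that range. Within 50 kb GPIHBP1 had a region in all 18 tables and a super-enhancer in 6. LPL then had 5 and FABP4 6, and the numbers for the other genes did not change. The share of all PCGs with a super-enhancer within 50 kb ranged from 8.76% to 34.2%. In NC GOM the region at ANGPTL4 spanned 184200 bases (chr2:70786401-70970600) and that at FABP4 115600 bases, both marked as super-enhancers, while LPL had a region of 15400 bases over its start without that mark. In NC GOM no region was found within 10 kb of GPIHBP1.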

How the data were processed

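RNA-seq of 236 libraries and Hi-C of 240 samples from 12 groups (3 diets by 4 depots), and 18 pooled H3K27ac tables, were used as deposited. The estimated counts and the TPM of PCGs were made by the authors with kallisto 0.43.0 on Sscrofa11.1, strand-specific, and summed per gene. The A-B index, a score per 20-kb bin, was computed by the authors from balanced and batch-normalized Hi-C maps. The H3K27ac signal of enhancer regions was computed by the authors from reads aligned with BWA 0.7.15 and sorted with SAMtools 1.3.1, with SICER peaks, on reads pooled per group. In each gene table and in the index table, 9 columns matched no sample and were not used.

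Counts were rounded and tested with edgeR 4.0.16 (TMM, quasi-likelihood), the index with limma 3.58.1, in R 4.3.3, each on all features and with only the groups compared. Thresholds were an adjusted p of 0.05 with a fold of 1.5 (detection above 0.5 TPM in 80% of a group) or an index difference of 0.75 over 113298 bins. The interaction of depot and diet was a likewise fitted F test. Tables were joined in Python 3.11.15 with pandas 2.3.3 and numpy 2.4.6. The scripts were tested on simulated data. Depth ran from 3337098 to 22939420 counts per library, and the smallest group, NC ULB, held 5.

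The members and lists were chosen with earlier results of these data known. The genes named are all 10 members, up to 6 pathway genes per diet step with the largest fold among those passing in 2 or more depots, and the 3 PCGs with the highest r to each member over 12 group means of log2(TPM + 1). One pathway gene that the rule names, and some sequences, are not reported here. Equal sample numbers across depots were treated as pairs where every pair's deviations correlated above 0.1, which held for NC GOM and ULB (lowest 0.104, 4 pairs), WG MAD and ULB (0.269, 30 pairs), WG RAD and ULB (0.101, 33 pairs) and WL MAD and RAD (0.236, 10 pairs). In WG, GOM with MAD (median 0.637, 36 pairs), RAD (0.581, 39) and ULB (0.603, 38), and MAD with RAD (0.635, 31), missed the rule. There 1, 2, 1 and 1 pairs were at or below 0.1. The main tests took all depots as unpaired. As nothing ties samples to separate pigs within the labels, p-values measure the spread between samples. Alternatives were DESeq2 1.42.0, other size factors, no filter, a term for or only libraries of at least 88% of TPM on PCGs, the replicate block, other index limits, quantile normalization, the gene body, a pseudocount of 0.1, and libraries left out.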

Additional observations from a re-analysis of the deposited data

Results flagged for a closer look

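In groups of 4 to 10 samples, 8 of 120 sets of values of the 10 genes held a sample far from the others by Dixon's test, which chance gives in about 1 in 20 sets. In expression, LPL reached 2149 TPM in NC GOM replicate 2 (next 1127 TPM, median of the others 929 TPM). GPIHBP1 was at 54.19 TPM in NC GOM replicate 5 (next 94.0 TPM, median 116 TPM) and at 160.9 TPM in WL ULB replicate 10 (next 341 TPM, median 532 TPM). VLDLR was at 45.68 TPM in NC GOM replicate 8 (next 63.0 TPM, median 76.3 TPM).

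In the A-B index, LPL was in compartment A in WL MAD replicate 3 alone of its group, at 0.1824 (next -0.51, median -0.92). SLC27A1 was at 4.265 in WL MAD replicate 10 (next 5.76, median 6.39) and ANGPTL4 at 4.382 in WL GOM replicate 10 (next 5.43, median 5.74), both at the low end but still in A. VLDLR was at -0.7585 in NC ULB replicate 5 (next -0.25, median -0.16).

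The effect of weight gain on ACSL1 differed among the 4 depots by the interaction test of edgeR (adjusted p = 0.007364), with a log2 fold change of 0.93 in GOM and -0.58 in RAD.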

How the results depend on the processing

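No call of a test reversed its direction under any alternative. From NC to WG 7 expression calls were made among the 10 genes. With a term for the share of TPM on PCGs there were 4, of which 3 were among the 7 and the other was FABP5 in GOM. The count was 1 among libraries of at least 88% alone and 1 with the replicate block, whose numbers did not pair these samples. Among libraries of at least 88% alone the depot pairs gave 4 calls in NC (main 18) and 4 in WL (main 14). Where equal numbers paired the samples, the block changed no expression call beyond those given with the depot comparisons. Over all comparisons 37 of 75 expression calls held among libraries of at least 88% alone, 60 with the term for that share, 59 with the block, 74 each with DESeq2 and the other size factors, and 7 to 8 of 8 without 1 NC ULB library. Without the libraries that stand apart, an alternative chosen after seeing the data, 33 of 38 calls held.

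For the A-B index from NC to WG (main 5 calls), an adjusted p below 0.01 gave 1, a difference above 0.5 gave 14, quantile normalization 1, the replicate block 3, leaving out 1 NC ULB sample 3 to 5, and leaving out NC MAD replicate 6, chosen like NC MAD replicate 1 after seeing the data, 3. From WG to WL (main 5) a difference above 0.5 gave 12 and the block 3, and for depot pairs in WG (main 13) a difference above 0.5 gave 28. The gene body in place of the start bin kept 67 of 77 index calls. The interaction, main 1, gave 12 calls with the replicate block, 2 without the libraries that stand apart and 1 to 3 without 1 NC ULB library. Restricting H3K27ac to super-enhancers left 26 of 174 combinations. The causes were not tested. NC ULB, with 5 libraries, limits what can be detected there.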
